A study of Mus musculus with 71 samples.

Results

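The genes described are 10 that act in DNA replication: Mcm3, Mcm4, Mcm6, Mcm7, Mcm10, Pcna, Cdc6, Gins1, Rrm2 and Tyms. They were chosen by symbol, and all 10 were found among the 15140 genes used of the deposited table. Their levels were followed in mouse oocytes made in culture, in 19 knockouts of such oocytes, in directly induced oocyte-like cells (DIOLs) through culture, in matured DIOLs and in oocytes from the animal.

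A cell copies its genome from origins that are licensed by loading the MCM ring, a helicase whose subunits include Mcm3, Mcm4, Mcm6 and Mcm7, and Cdc6 is one of its loaders. Mcm10 and the GINS complex, of which Gins1 is a subunit, turn the loaded ring into an active helicase, and Pcna is the sliding clamp that holds DNA polymerase on its template. Rrm2, a subunit of ribonucleotide reductase, and Tyms, thymidylate synthase, make deoxynucleotides. Oocytes in meiotic arrest do not copy their DNA, yet they store mRNA and protein that serve the cell cycles of the early embryo.

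All samples share a C57BL/6 x 129 background. Oocytes grown in vitro started as stem cells with Blimp1-Venus and Stella-CFP reporters. These were made into primordial germ cell-like cells (PGCLCs) and joined with somatic cells of E12.5 female gonads into reconstituted ovaries, cultured with retinoic acid at first and the estrogen receptor blocker ICI182780 later. Oocytes labelled SC+ were sorted on day 11 or day 13. Wild-type oocytes of both days were set beside knockouts of Lhx8, Figla, Stat3 and Sub1 on day 11 and of Nobox, Sohlh1, Tbpl2, Dynll1, Ybx3, Ccnk, Kdm1b, Thap7, Noto, Foxr1, Mef2b, Sfr1, Hes6, Ell3 and Tcf25 on day 13. The labels give these samples the reporter genotype and name the knocked-out gene, and do not describe clones or the lesion, although the names of the Sohlh1 data columns carry what reads as a guide name. DIOLs were induced with Shield1, a compound that stabilises tagged proteins, in medium with stem cell factor (SCF), from embryonic stem cells of a genotype labelled MGA8, and the labels do not say which genes that stands for. A series named DIOLs.S covered days 1, 3, 5, 7 and 14 and a series named DIOLs days 5, 10, 15 and 25, and what the S denotes is not given in the sources used here. MII DIOLs, matured to the second meiotic metaphase, came from aggregates with the same kind of gonadal cells that passed through in vitro growth, with follicle-stimulating hormone, BMP15 and GDF9, and maturation. Germinal vesicle (GV) oocytes of the reporter strain were taken from the animal as incompetent or competent, with 2w and 3w in the names of their data columns, and the labels used here do not explain these.

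Each group held n = 2 libraries, and each GV group n = 3. The labels do not say that libraries of a group came from separate cultures or animals, so the p-values below measure the spread between libraries, which may be technical. That spread is pooled over all groups of a fit. The SE of a gene is therefore shared between comparisons and does not follow the libraries compared. Levels are in TPM, a share of all transcripts in a library, which can be compared between genes because transcript length is divided out. Libraries were made from polyadenylated RNA of many cells, so a change in the number of cells of a type cannot be told apart from a change in RNA per cell. The summed level of 9 oocyte marker genes was 55510.0 to 56827 TPM in wild-type oocytes of day 13, at least 1365 TPM in each in vitro library, and 720 to 835 TPM in DIOLs.S of day 1. Of 12 targeted genes in the table, 11 were lower in both knockout libraries than in both wild-type libraries. Sub1 still stood at 71.1% of wild type in the libraries labelled Sub1 knockout, Thap7 at 59.2% and Sfr1 at 53.0% in theirs, and Ccnk at 101% in the libraries labelled Ccnk knockout. Stat3 was at 22.4% in the Stat3 knockout. The other 7 targets (Figla, Nobox, Ybx3, Noto, Foxr1, Mef2b and Tcf25) were not analysed here, so those labels are unchecked. The Sohlh1 libraries stood apart from each other, with macrophage markers summing to 36.8 TPM in one and 2366 TPM in the other.

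Changes are differences of log2(TPM + 1), fitted by limma over all genes, which understate the changes of genes with low levels. A gene was called at a Benjamini-Hochberg adjusted p under 0.05 with an absolute log2 change of at least 1. The percentage of all genes tested that were called the same way is given beside the first count of each comparison. TPM are relative values. Rescaling the libraries by the median of ratios moved the median change of all genes by over 0.1 on the log2 scale in 14 comparisons, most in Dynll1 (from 0.69 to 0.22), and its effect is given where it ended or added a call or moved the share of higher among called genes by over 10 percentage points.

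By GENCODE M21 (GRCm38), Mcm3 lies at chr1:20802968-20820312, Mcm6 at chr1:128331590-128359664 and Mcm4 at chr16:15623897-15637400, all on the minus strand. Mcm7 lies on the minus strand at chr5:138164583-138172422. Its exons, pooled over all annotated transcripts, overlap those of Ap4m1 and Cops6 on the opposite strand and Mir25 and Mir93 on the same strand. Tyms is on the minus strand at chr5:30058202-30073617, and Mcm10 and Pcna are on that of chromosome 2, at chr2:4989714-5012791 and chr2:132249162-132253314. Gins1 (chr2:150905400-150931280), Cdc6 (chr11:98907801-98923940) and Rrm2 (chr12:24708241-24714146) are on the plus strand. Some of their sequence is repeated elsewhere. Of all 50-base stretches of transcript, 19.1% in Pcna and 18.1% in Mcm7 also occur in other annotated genes, mainly the processed pseudogenes Pcna-ps2 and Gm5487, so these levels are less certain. The share was 5.25% in Tyms, 4.95% in Rrm2, 3.93% in Cdc6, 1.52% in Mcm4 and 0.47% in Mcm6, and 0 in Mcm3, Mcm10 and Gins1.

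E2F transcription factors are the best known regulators of replication genes. Letter strings of the E2F type (TTTCGCGC, TTTGGCGC, TTTCCCGC and TTTGCCGC) were searched on both strands of RefSeq promoter windows of GRCm38.p6, from 250 bases before to 50 after a transcription start. Windows were at hand for 8 of the 10 genes, and for neither Mcm4 nor Gins1. Cdc6, Mcm3, Mcm6 and Mcm7 held a match, which is 4 of 8, against 2.605% of 27025 genes. Mcm10, Pcna, Rrm2 and Tyms held none of these letters in the window. The CCAAT box was found in 6 of 8, against 41.1% of genes. These counts describe letters and not binding. The upstream stretches of 80 bases that hold matches of Cdc6, Mcm6 and Mcm7 are shown, and the matches of Mcm3 lie after the start. Any part of these letters in the changes below was not tested. Matches are in capitals, and in Mcm6 the capitals cover 2 matches that overlap on opposite strands. Another match of Mcm6 and one of Mcm7 lie nearer the start, outside these stretches, and the second promoter window listed for Mcm7 held none.
Cdc6, chr11:98907977-98908056, plus strand: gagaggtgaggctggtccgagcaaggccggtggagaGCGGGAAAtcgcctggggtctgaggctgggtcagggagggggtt
Mcm6, chr1:128359772-128359851, minus strand: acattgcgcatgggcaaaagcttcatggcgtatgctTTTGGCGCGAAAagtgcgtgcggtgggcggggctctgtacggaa
Mcm7, chr5:138172005-138172084, minus strand: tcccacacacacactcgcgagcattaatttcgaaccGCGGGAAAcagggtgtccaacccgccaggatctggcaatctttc

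In wild-type oocytes the ring subunits lay lower on day 13 than on day 11, and Tyms lay higher. Mcm3 read 77.4 and 68.1 TPM on day 11 and 33.0 and 36.6 TPM on day 13. It was the 1 gene of the 10 called, lower by a log2 change of -1.04 ± 0.15 (SE), adjusted p = 3.32e-06, while 16.5% of genes were called lower. Both libraries of day 13 lay well below both of day 11. The call ended after rescaling, at a log2 change of -0.62, and without the first library of day 11 (-0.95) or of day 13 (-0.97). Rescaling took the median change of all genes from -0.24 to 0 and raised the share of higher genes among all calls from 25.0% to 45.9%. The median change of the 10 was -0.47 beside -0.24 for all genes. Mcm7 went from 57.4 and 47.9 to 31.5 and 33.1 TPM (-0.68), and Mcm4 from 65.2 and 60.6 to 42.5 and 41.4 TPM (-0.57). Rrm2 went from 60.3 and 80.8 to 39.1 and 41.1 TPM (-0.79). None of these 3 pairs of groups overlapped, but their changes stayed under a log2 of 1. The ring subunit Mcm6 changed least, from 132 and 121 to 86.5 and 102 TPM (-0.42 ± 0.20 (SE), adjusted p = 0.0907 by limma), also without overlap. Tyms moved the other way, from 38.8 and 46.6 to 70.0 and 69.5 TPM (0.70 ± 0.16 (SE), adjusted p = 9.31e-04), without overlap, and was called after rescaling (1.13). Cdc6 was the lowest of the 10 genes on both days, at 7.35 and 10.2 TPM on day 11 and 8.09 and 7.43 TPM on day 13, and its groups overlapped. The marker genes of granulosa and gonadal somatic cells summed to 1426 to 1463 TPM on day 11 and 59.7 to 61.4 TPM on day 13, and the part of this in the changes was not tested.

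On day 11, Tyms fell in all 4 knockouts while Mcm7 lay above wild type in all 4. Tyms read 38.8 and 46.6 TPM in wild type, 15.1 and 18.1 TPM in the Lhx8 knockout and 19.2 and 17.2 TPM in the Figla knockout. It read 16.4 and 16.6 TPM in the Stat3 knockout and 20.7 and 15.1 TPM in the libraries labelled Sub1 knockout. Every knockout library stood below both wild-type libraries, and the 8 of them spanned a narrow range. The log2 changes were -1.31 in Lhx8, -1.18 in Figla, -1.31 in Stat3 and -1.22 in Sub1, each ± 0.16 (SE), with adjusted p of at most 1.11e-06. These comparisons share their wild-type libraries. Tyms was the 1 gene of the 10 called lower in each, against 9.47% of genes in Lhx8, 9.52% in Figla, 11.5% in Stat3 and 9.26% in Sub1. Lhx8 is an oocyte transcription factor. In its knockout Gins1 read 101 and 88.0 TPM against 48.8 and 57.5 TPM (0.82), and Mcm3 read 121 and 109 TPM against 77.4 and 68.1 TPM (0.66). Neither overlapped with wild type or reached the threshold. Macrophage markers summed to 321 to 342 TPM in the Lhx8 knockout and 326 to 350.0 TPM in the Figla knockout, against 23.9 to 43.7 TPM in wild type, with 7 of 9 called higher in each. Stromal and endothelial markers summed to 260.3 to 268 TPM in Lhx8 and 346 to 381 TPM in Figla, against 78.4 to 100.1 TPM. The part of either list was not tested.

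The knockout of Stat3, a transcription factor of cytokine signalling, had the most calls among the knockouts of day 11. Mcm3, Mcm6, Mcm7 and Gins1 rose, 4 of 10, against 15.8% of genes called higher, and the median change of the 10 was 0.89 beside 0.09 for all genes. Mcm3 read 164 and 172 TPM (1.20 ± 0.15 (SE), adjusted p = 2.18e-07), and Mcm7, a subunit of the same ring, 139 and 129 TPM (1.33 ± 0.15 (SE), adjusted p = 5.57e-08). Mcm6 read 256 and 287 TPM against 132 and 121 TPM in wild type (1.09 ± 0.20 (SE), adjusted p = 4.21e-05). Gins1 read 121 and 105 TPM against 48.8 and 57.5 TPM (1.08 ± 0.20 (SE), adjusted p = 5.75e-05). Both knockout libraries stood above both wild-type libraries for each of these 4 genes. After rescaling, Mcm6 (1.09 before, 0.94 after) and Gins1 (0.92 after) were no longer called, and leaving out the first wild-type library also ended the call of Gins1 (0.96), as did leaving out the first knockout library (0.97). Mcm4 changed by 0.92 and Cdc6 by 0.87, both under the threshold. Cdc6 passed it without the second wild-type library (1.08) or the second knockout library (1.13). Rrm2 and Mcm10 overlapped with wild type. In the Figla knockout Mcm7 was the 1 gene called higher, against 18.6% of genes, at 106 and 112 TPM (1.04 ± 0.15 (SE), adjusted p = 3.77e-06). That call ended after rescaling (0.78), which moved the share of higher genes among all calls from 66.1% to 52.0%, and without the second wild-type library (0.91) or the second knockout library (0.9953). Of the 21 groups of in vitro oocytes Pcna was highest in the Figla knockout, at 221 and 230.0 TPM, with a log2 change of 0.89, and was called without the first wild-type library (1.10). In the libraries labelled Sub1 knockout Pcna instead read 80.2 and 85.2 TPM (-0.55), below wild type. Macrophage markers summed to 1822 to 1823 TPM there against 23.9 to 43.7 TPM in wild type, where C1qa, C1qc, Csf1r, Ctss, Fcer1g and Ptprc were listed at 0, and their part was not tested.

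**Figure D1:**
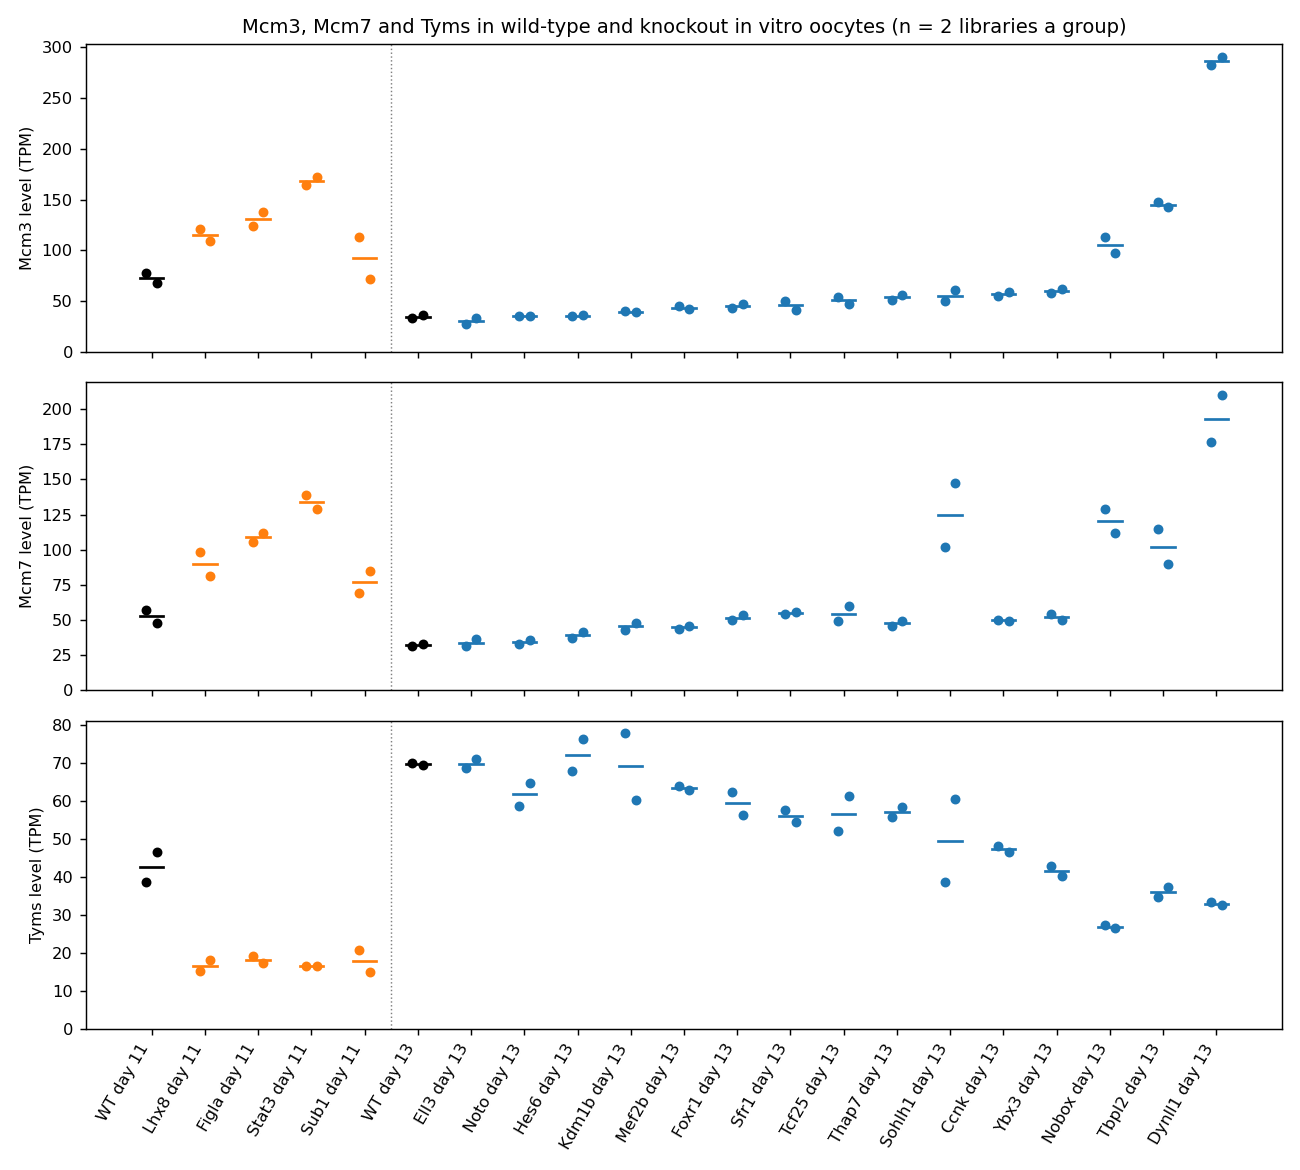
Levels of Mcm3, Mcm7 and Tyms in TPM (vertical axes) in each in vitro group (horizontal axis), with day 11 left of the dotted line and the knockouts of day 13 ordered by Mcm3. Points are the 2 libraries and bars their mean. Mcm3 reaches 283 and 290.2 TPM in the Dynll1 knockout, and Tyms is lowest in the 4 knockouts of day 11.

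On day 13, the helicase subunits and Cdc6 rose in the Nobox, Tbpl2 and Dynll1 knockouts. Nobox is an oocyte transcription factor, Tbpl2 an oocyte form of the TATA-binding protein and Dynll1 a dynein light chain. Mcm3 read 33.0 and 36.6 TPM in wild type, 113 and 97.2 TPM in Nobox, 148 and 142 TPM in Tbpl2 and 283 and 290.2 TPM in Dynll1. The knockout libraries did not overlap with wild type or with each other. The log2 changes were 1.57 ± 0.15 in Nobox, 2.03 ± 0.15 in Tbpl2 and 3.01 ± 0.15 in Dynll1 (SE), with adjusted p of at most 1.80e-09. The 3 knockouts were compared with the same 2 wild-type libraries.

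In the Dynll1 knockout 6 of the 10 genes rose, against 37.7% of genes, and 1 fell, against 10.4%. The median change of the 10 was 1.30 beside 0.69 for all genes. Mcm6 read 446 and 438 TPM against 86.5 and 102 TPM (2.22 ± 0.20 (SE), adjusted p = 2.43e-10), the highest level of Mcm6 in any of the 33 groups. Mcm7 read 176 and 210.1 TPM against 31.5 and 33.1 TPM (2.54 ± 0.15 (SE), adjusted p = 1.69e-13), and Mcm4 read 179 and 166 TPM against 42.5 and 41.4 TPM (2.02 ± 0.14 (SE), adjusted p = 2.48e-12). The 4 ring subunits thus had both knockout libraries far above wild type. Cdc6 read 24.7 and 22.7 TPM against 8.09 and 7.43 TPM (1.50 ± 0.30 (SE), adjusted p = 1.07e-04), and Rrm2 read 83.4 and 92.5 TPM against 39.1 and 41.1 TPM (1.11 ± 0.20 (SE), adjusted p = 3.11e-05). Both also lay above wild type without overlap, but their calls ended after rescaling, at 0.90 for Cdc6 and 0.48 for Rrm2. The share of higher genes among all calls moved from 78.3% to 58.4%. Tyms fell to 33.3 and 32.6 TPM from 70.0 and 69.5 TPM (-1.06 ± 0.16 (SE), adjusted p = 2.57e-06). Pcna changed by 0.52, Gins1 by 0.38 and Mcm10 by 0.34, none of them called.

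In the Nobox knockout 5 of the 10 rose, against 30.0% of genes, and Tyms fell, against 8.50%, with a median change of 1.03 beside 0.52 for all genes. Mcm7 read 129 and 112 TPM (1.86 ± 0.15 (SE), adjusted p = 1.15e-10), Mcm4 133 and 122 TPM (1.58 ± 0.14 (SE), adjusted p = 4.23e-10) and Mcm6 198 and 202 TPM (1.08 ± 0.20 (SE), adjusted p = 3.85e-05). Cdc6 read 27.7 and 21.5 TPM, its highest mean of the 21 groups of in vitro oocytes, overlapping with Dynll1, with a log2 change of 1.54 ± 0.30 (SE), adjusted p = 9.75e-05. None of these overlapped with wild type. Rescaling left Mcm4 and Mcm7 called and took Mcm3 to 0.99, Cdc6 to 0.9969 and Mcm6 to 0.50, all under the threshold, while the share of higher genes among all calls went from 77.9% to 57.3%. The call of Mcm6 also ended without the first wild-type library (0.96). Rrm2 changed by 0.98 and passed without the second wild-type library (1.01). Tyms read 27.3 and 26.6 TPM (-1.34 ± 0.16 (SE), adjusted p = 9.05e-08), its lowest level on day 13. In the Tbpl2 knockout 5 of the 10 rose, against 22.8% of genes, with a median change of 0.93 beside 0.36. Mcm7 read 115 and 89.8 TPM (1.62 ± 0.15 (SE), adjusted p = 2.65e-09), Mcm4 101 and 115 TPM (1.35 ± 0.14 (SE), adjusted p = 1.24e-08), Mcm6 196 and 198 TPM (1.06 ± 0.20 (SE), adjusted p = 6.84e-05) and Cdc6 18.3 and 19.0 TPM (1.17 ± 0.30 (SE), adjusted p = 0.00219). Again all libraries lay above wild type. After rescaling Mcm3 and Mcm7 were still called, and Mcm4 (0.92), Mcm6 (0.62) and Cdc6 (0.77) were not, with the share of higher genes among all calls going from 78.2% to 57.7%. Without the first wild-type library Mcm6 was not called either (0.94). Tyms read 34.8 and 37.3 TPM with a change of -0.94, short of the threshold, and was called after rescaling (-1.37).

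In the knockout of Sohlh1, another oocyte transcription factor, Mcm7 was the 1 gene called, against 22.3% of genes called higher. It read 102 and 147 TPM (1.89 ± 0.15 (SE), adjusted p = 9.25e-11), above wild type in both libraries. For Mcm4, Mcm6, Mcm10 and Gins1 the 2 libraries lay on opposite sides of both wild-type libraries. Mcm10 read 15.6 and 61.8 TPM, Mcm6 138 and 56.9 TPM, Pcna 117 and 189 TPM and Cdc6 2.03 and 7.38 TPM. Leaving out the second library called Mcm10 (-1.04) and Cdc6 (-1.53) lower, and leaving out the first called Pcna higher (1.16). Rescaling also called Cdc6 lower (-1.11) and moved the share of higher genes among all calls from 62.6% to 49.2%. Beside the macrophage markers, the stromal and endothelial markers ran from 203 to 1886 TPM between the libraries against 10.4 to 16.4 TPM in wild type, and the part of either was not tested. Without both Sohlh1 libraries no call of these 10 genes changed in the other comparisons of in vitro oocytes.

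**Figure D2:**
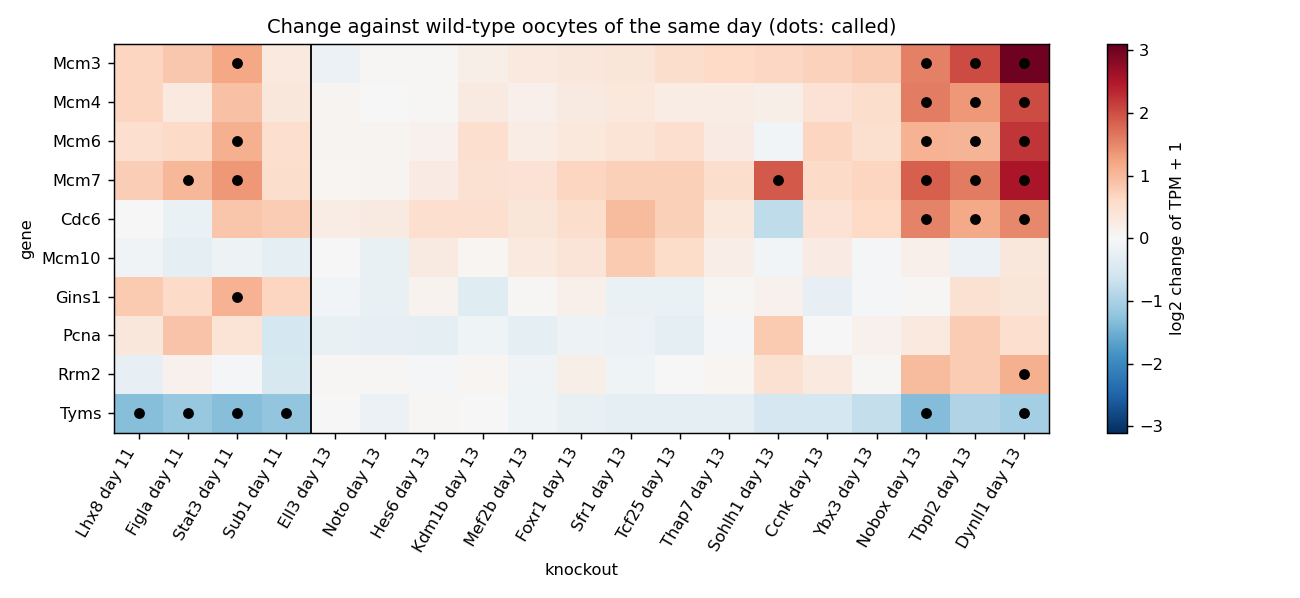
Differences of log2(TPM + 1) between each knockout (horizontal axis) and wild-type oocytes of the same day for the 10 genes (vertical axis), with black dots on called values. The ring subunits and Cdc6 are red in Nobox, Tbpl2 and Dynll1, and Tyms is blue and called in 6 knockouts.

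In the other 11 knockouts none of the 10 genes was called. All genes were called either way in 17.9% of tests in Ybx3, 6.14% in the libraries labelled Ccnk knockout, 3.19% in Kdm1b and 2.74% in Thap7. The share was 2.23% in Noto, 1.88% in Foxr1, 1.24% in Sfr1 and 1.08% in Mef2b, and 0.593% in Hes6, 0.504% in Tcf25 and 0.114% in Ell3. For most of these shares 0 of 10 is near the background. Rescaling moved the share of higher genes among all calls from 87.6% to 69.2% in Ybx3, from 85.2% to 62.0% in Ccnk and from 72.6% to 46.4% in Tcf25. The 110 log2 changes ran from -0.73 for Tyms in Ybx3 to 0.98 for Cdc6 in Sfr1. By limma 29 of the 110 had an unadjusted p under 0.05, beside 17.7% of all values of all genes in these 11 comparisons. Tyms in Ybx3 read 42.9 and 40.3 TPM and was called after rescaling (-1.07). Mcm7 in Sfr1 read 54.2 and 55.5 TPM (0.75 ± 0.15 (SE), adjusted p = 0.00449) and Mcm3 in the libraries labelled Ccnk knockout 55.5 and 59.3 TPM (0.71 ± 0.15 (SE), adjusted p = 0.00153). All 3 lay outside the wild-type libraries.

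Read by gene over the 19 knockouts, Mcm7 and Tyms had the most calls. Mcm7 was called higher in 6 knockouts, Mcm3 and Mcm6 in 4 each, Mcm4 and Cdc6 in 3 each, and Gins1 and Rrm2 in 1 each. Mcm10 and Pcna were called in none by limma, nor after rescaling. Tyms was called lower in 6 and accounts for all 6 lower calls among the 190 values. These tallies depend on scaling. Rescaling ended every higher call of Cdc6, Gins1 and Rrm2, and those of Mcm6 in Stat3, Nobox and Tbpl2. The calls of Mcm3 in Nobox, Mcm4 in Tbpl2 and Mcm7 in Figla ended too. Lower calls were added for Tyms in Tbpl2 and Ybx3 and for Cdc6 in Sohlh1. The log2 change of Mcm10 stayed between -0.31 and 0.81, and that of Pcna between -0.55 and 0.89. Among the 15 knockouts of day 13, both libraries stood above both wild-type libraries in 13 for Mcm7 and in 12 each for Mcm3, Mcm4 and Mcm6. For Cdc6 they did so in 14 and stood below in 1. For Tyms both stood below in 12 and above in none. Mcm10 stood above in 9 and below in 1, Rrm2 above in 9 and below in 2, Pcna above in 4 and below in 7, and Gins1 above in 3 and below in 5. Over the 12306 genes tested, both libraries stood above wild type in 38.6% of all values of a gene in a knockout and below in 18.7%. Of these genes 11.5% stood above in at least 12 knockouts and 2.93% below in at least 12. Since all 15 share 2 wild-type libraries, these counts are not independent, and 1 low or high wild-type library would move them all.

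The oocyte markers were lower than in wild type in every knockout with a call, but their sums did not follow the number of calls. They summed to 55510.0 to 56827 TPM in wild type of day 13, to 2589 to 2621 TPM in Dynll1, 2697 to 2747 TPM in Nobox, 11719 to 11844 TPM in Tbpl2 and 1563 to 2172 TPM in Sohlh1. In the 11 knockouts without a call the sums ran from 31569 TPM in Ybx3 to 63030.4 TPM in Hes6. On day 11 they were 9104 to 9209.8 TPM in wild type and 1365 to 2457 TPM in the 4 knockouts. Markers of granulosa and gonadal somatic cells summed to 866 to 921 TPM in Nobox, 1111 to 1189 TPM in Tbpl2 and 485 to 528 TPM in Dynll1, against 59.7 to 61.4 TPM in wild type. In Ybx3, where none of the 10 genes was called, they reached 1723 to 1838 TPM. The part of either marker list in the results was not tested.

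Other replication genes were read from lists of licensing, firing, synthesis and nucleotide genes, in which 36 genes other than these 10 were in the table and 24 were not analysed here. In Dynll1 17 of the 36 rose and 3 fell, beside 37.7% and 10.4% of all genes, with a median log2 change of 0.92 beside 0.69. In Nobox 8 rose, beside 30.0% of all genes, and 1 fell (median 0.66 beside 0.52). In Tbpl2 7 rose, beside 22.8%, and none fell (0.44 beside 0.36). In both knockouts the share that rose was below that of all genes. In Stat3 8 rose, beside 15.8%, and 1 fell, with a median of 0.50 beside 0.09 for all genes. Cdc45, the partner of the MCM ring and GINS in the active helicase, rose from 33.6 to 209.7 TPM in Stat3, from 29.1 to 135 TPM in Tbpl2 and from 29.1 to 179.7 TPM in Dynll1. Wdhd1, which links the helicase to DNA polymerase alpha, rose from 19.7 to 152 TPM in Dynll1. Pole, the catalytic subunit of DNA polymerase epsilon, rose from 27.1 to 160.2 TPM in Stat3. Dck, deoxycytidine kinase of the nucleotide salvage pathway, rose from 32.4 to 118 TPM in Stat3 and from 20.6 to 92.3 TPM in Dynll1, where Tyms fell. Orc5, of the origin recognition complex, fell from 178 to 68.6 TPM in Stat3. Of 13 genes of early meiosis, 12 rose in Tbpl2, Dynll1 and Figla, 11 in Stat3, Nobox and Lhx8, and 10 in the libraries labelled Sub1 knockout. All genes were called higher in 22.8% of tests in Tbpl2, 37.7% in Dynll1, 18.6% in Figla and 15.8% in Stat3. The share was 30.0% in Nobox, 12.4% in Lhx8 and 13.5% in the libraries labelled Sub1 knockout. The early meiosis genes rose as well in knockouts with few or no calls of the 10 replication genes. In Ybx3 10 of 13 rose, beside 15.7% of all genes, and in Sohlh1 7, beside 22.3%. In the libraries labelled Ccnk knockout 7 rose, beside 5.23%. In the other 9 knockouts 0 to 2 rose, beside shares of all genes from 0.0975% in Ell3 to 3.04% in Kdm1b. Dmc1, a meiotic recombinase, rose from 16.7 to 412 TPM in Stat3. Of 10 genes of the E2F and cyclin E group, 6 rose and 2 fell in Dynll1, beside 37.7% and 10.4% of all genes. In Nobox 5 rose and 1 fell, beside 30.0% and 8.50%. In Tbpl2 4 rose and 2 fell, beside 22.8% and 6.35%, and in Stat3 3 rose and 1 fell, beside 15.8% and 11.5%. Of 12 genes of mitosis 8 rose in Dynll1, beside 37.7% of all genes, and 2 in Nobox, beside 30.0%. In these knockouts 1 and 2 of the 12 fell, beside 10.4% and 8.50%. Mcm8, Mcm9 and Mcmdc2, MCM relatives that act in meiotic recombination, had 1 of 3 called higher in 9 knockouts, which include Ybx3 and the libraries labelled Ccnk knockout, and none in the other 10. Over all knockouts the share of all genes called higher ran from 0.0975% in Ell3 to 37.7% in Dynll1.

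In DIOLs.S, Mcm3, Mcm6, Mcm7, Cdc6, Mcm10 and Rrm2 stood highest on day 1 and fell by day 3. On day 1 Rrm2 read 418 and 464 TPM, Mcm7 344 and 389 TPM, Mcm6 339 and 379 TPM and Mcm3 266 and 291 TPM. By day 3 they read 145 and 144, 131 and 137, 160.4 and 153 and 109 and 118 TPM in the same order. None of these groups overlapped. The log2 changes were -1.60 ± 0.16 for Rrm2, -1.44 ± 0.11 for Mcm7, -1.19 ± 0.11 for Mcm6 and -1.28 ± 0.11 for Mcm3 (SE), with adjusted p of at most 5.69e-08. Cdc6 fell from 37.4 and 43.8 to 15.6 and 15.7 TPM (-1.32 ± 0.17 (SE), adjusted p = 1.95e-06), and Mcm10 from 109.5 and 118 to 57.5 and 46.3 TPM (-1.13 ± 0.11 (SE), adjusted p = 3.96e-08). That made 6 of 10 called lower, against 9.00% of all genes, and the median change of the 10 was -1.16 beside 0.14 for all genes. The call of Mcm10 ended without the second day 3 library (-0.97). Mcm4 changed by -0.90 and was called after rescaling (-1.12), which moved the share of higher genes among all calls from 57.0% to 42.2%. Tyms stood at 38.3 and 40.9 TPM on day 1 and 39.4 and 38.6 TPM on day 3, and Gins1 at 59.0 and 58.9 TPM and 55.6 and 73.8 TPM, with overlap in both. The summed level of 5 pluripotency markers was 1084 to 1164 TPM on day 1 and 271 to 276 TPM on day 3. That of the oocyte markers was 719.7 to 835 TPM on day 1 and 4702 to 4988 TPM on day 3, and the part of either list was not tested.

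Between days 3, 5 and 7 no step had a call. Day 5 against day 3 called 0 of 10, against 7.95% of genes, and day 7 against day 5 called 0 of 10, against 8.06%, while by limma 8 and 7 of the 10 had an unadjusted p under 0.05, as 39.4% and 38.3% of all genes did. Mcm3 stood at 75.8 and 70.2 TPM on day 5 and 63.9 and 45.7 TPM on day 7, and the changes of the steps were -0.63 and -0.42, with adjusted p of 2.96e-04 and 0.00797. Gins1 read 35.5 and 43.6 TPM on day 5 and 42.1 and 39.3 TPM on day 7, with overlap, and Tyms 22.4 and 27.1 TPM and 33.4 and 40.1 TPM, without. On day 7 the libraries differed from each other, with somatic markers summing to 577 TPM in one and 2362 TPM in the other. Leaving out either changed no call.

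By day 14 Gins1 and Tyms had risen and Rrm2 had fallen further. Tyms read 33.4 and 40.1 TPM on day 7 and 127 and 118 TPM on day 14 (1.71 ± 0.14 (SE), adjusted p = 1.90e-09), its highest level in the 33 groups. Gins1 went from 42.1 and 39.3 to 94.2 and 118 TPM (1.35 ± 0.15 (SE), adjusted p = 1.61e-07). These were the 2 of 10 called higher, against 7.78% of genes. Rrm2 fell from 95.3 and 66.8 to 19.5 and 24.2 TPM (-1.83 ± 0.16 (SE), adjusted p = 4.43e-09), the 1 called lower against 32.8%. None of these 3 overlapped. The 2 nucleotide genes thus moved in opposite directions. Pcna went from 113 and 118 to 164 and 184 TPM (0.59) and was called after rescaling (1.08), which moved the share of higher genes among all calls from 19.2% to 39.6%. Granulosa and gonadal somatic markers summed to 577 to 2362 TPM on day 7 and 73.3 to 105 TPM on day 14, with 11 of 14 called lower. Stromal and endothelial markers summed to 45.0 to 209 TPM and 12.0 to 20.0 TPM, with 6 of 7 called lower. Oocyte markers summed to 19261 to 24985 TPM on day 7 and 76999 to 80369 TPM on day 14. The part of these lists was not tested.

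From day 1 to day 14 as a whole 7 of 10 fell, against 36.5% of genes, and Tyms rose, against 16.8%. The median change of the 10 was -1.99 beside -0.45 for all genes. Rrm2 fell by the most, from 418 and 464 to 19.5 and 24.2 TPM (-4.28 ± 0.16 (SE), adjusted p = 3.81e-15). The ring subunits fell by -2.93 for Mcm3, -2.28 for Mcm6, -2.14 for Mcm4 and -2.11 for Mcm7, Cdc6 by -1.87 and Mcm10 by -1.10. Rescaling ended the call of Mcm10 (-0.79) and added one of Gins1 (1.14). Of the 36 other replication genes 9 fell, beside 36.5% of all genes, and 3 rose, beside 16.8% (median -0.53 beside -0.45). Both shares were below those of all genes. Among these 36, Pole3, a small subunit of DNA polymerase epsilon, rose from 95.4 to 362 TPM, and Shmt1, a folate enzyme, fell from 90.2 to 9.32 TPM. Top2a, a marker of dividing cells, fell from 539.7 to 6.29 TPM. The 12 genes of mitosis as a list fell less, from a sum of 2780 to 3039 TPM to 1223 to 1261 TPM. Their sum was lower in between, at 637 to 651 TPM on day 5 and 822 to 848 TPM on day 7.

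**Figure D3:**
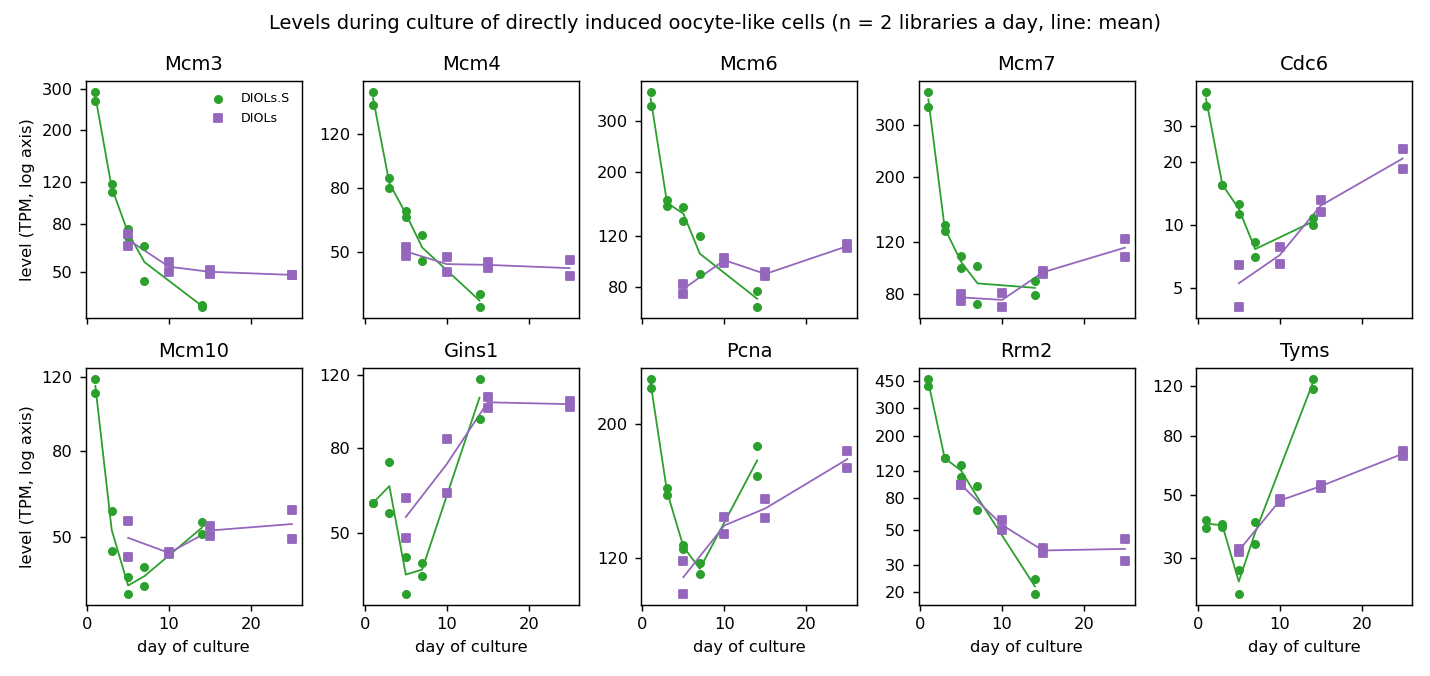
Levels in TPM on log axes (vertical) against day of culture (horizontal) for the 10 genes in DIOLs.S (green circles) and DIOLs (purple squares), with lines through the means of 2 libraries. In DIOLs.S the ring subunits and Rrm2 drop from day 1 to day 5, and Gins1, Pcna and Tyms are higher on day 14 than on day 7.

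In DIOLs between day 5 and day 25 the levels drifted, with no call in single steps. Each step called 0 of 10, against 23.1% of genes from day 5 to day 10, 3.64% from day 10 to day 15 and 7.57% from day 15 to day 25. By limma 7, 4 and 5 of the 10 had an unadjusted p under 0.05 in these steps, beside 58.0%, 31.0% and 38.5% of all genes. Over the whole span Cdc6 went from 6.45 and 4.03 to 23.3 and 18.5 TPM (1.83 ± 0.17 (SE), adjusted p = 7.89e-09) and Tyms from 32.2 and 31.3 to 68.0 and 70.9 TPM (1.10 ± 0.14 (SE), adjusted p = 5.43e-07), 2 of 10 called higher against 10.9% of genes. Rrm2 went from 97.6 and 97.4 to 44.0 and 31.9 TPM (-1.36 ± 0.16 (SE), adjusted p = 1.92e-07), the 1 called lower against 33.4%. The libraries did not overlap for these 3 genes. After rescaling Rrm2 was no longer called (-0.93), while Pcna (1.07) and Gins1 (1.32) were called higher, and the share of higher genes among all calls went from 24.7% to 40.8%. That share went from 16.9% to 29.1% between day 5 and day 10 and from 30.8% to 41.1% between day 10 and day 15. Gins1 stood at 60.6 and 48.4 TPM on day 5 and 100.5 and 104 TPM on day 25 (0.90), and passed without the first library of day 5 (1.06). Mcm10 overlapped between the ends of the span, and Mcm4 changed by -0.18.

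On day 5, where both series were sampled, Cdc6 was higher in DIOLs.S, the 1 gene of 10 called higher against 4.48% of genes. It read 11.3 and 12.7 TPM in DIOLs.S and 6.45 and 4.03 TPM in DIOLs (1.08 ± 0.17 (SE), adjusted p = 4.41e-05). The libraries did not overlap, but the call ended without the second DIOLs library (0.80). Mcm6 read 152 and 135 TPM against 82.2 and 75.6 TPM (0.85), under the threshold. Mcm3 overlapped. Granulosa and gonadal somatic markers summed to 464 to 473 TPM in DIOLs.S and 48.9 to 51.8 TPM in DIOLs, where Fshr, Hsd3b1 and Nr5a1 were listed at 0. Of these 14 markers 12 were called higher in DIOLs.S, and their part was not tested.

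In MII DIOLs the 10 genes split. Pcna, Rrm2 and Mcm4 rose against DIOLs of day 25, 3 of 10 against 19.8% of genes, and Mcm6, Gins1 and Tyms fell, 3 of 10 against 37.8%. Rrm2 read 44.0 and 31.9 TPM in DIOLs of day 25 and 399 and 404 TPM in MII DIOLs (3.38 ± 0.16 (SE), adjusted p = 3.86e-14). Pcna read 169 and 180.5 TPM and 560.2 and 612 TPM (1.74 ± 0.08 (SE), adjusted p = 7.39e-14), the highest level of Pcna in the 33 groups. Mcm4 read 46.9 and 41.6 TPM and 212 and 189 TPM (2.15 ± 0.10 (SE), adjusted p = 3.58e-14), also its highest. The MII libraries stood far above those of day 25 for all 3. Tyms read 68.0 and 70.9 TPM and 1.62 and 2.68 TPM (-4.50 ± 0.14 (SE), adjusted p = 5.16e-17), and Gins1 100.5 and 104 TPM and 7.82 and 7.94 TPM (-3.54 ± 0.15 (SE), adjusted p = 1.12e-14). Mcm6 went from 113 and 109 to 25.2 and 29.2 TPM (-1.99 ± 0.11 (SE), adjusted p = 1.15e-12). These 3 had their lowest levels of the 33 groups in MII DIOLs. Mcm3 read 30.6 and 29.3 TPM there (-0.67), also its lowest mean, though close to that of the Ell3 knockout at 30.8 TPM. As described above, MII DIOLs also passed through aggregates with gonadal cells, in vitro growth and maturation. Culture and meiotic stage therefore cannot be told apart in this comparison.

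Subunits of 1 ring therefore parted in MII DIOLs, with Mcm4 up, Mcm6 down, Mcm7 at 169.7 and 197 TPM (0.67) and Mcm3 not called. The median change was -0.07 for the 10 and -0.39 for all genes, the latter 0 after rescaling, under which Mcm7 (1.64) and Mcm10 (1.51) were called higher as well and the share of higher genes among all calls went from 34.4% to 52.0%. The 6 calls named above held under rescaling in the same directions. The nucleotide genes Rrm2 and Tyms parted too. Of the 36 other replication genes 12 rose, beside 19.8% of all genes, and 17 fell, beside 37.8% (median -0.70 beside -0.39). Dbf4, the activator of the origin-firing kinase, rose from 86.7 to 1259 TPM, and Orc1, of the origin recognition complex, from 45.6 to 220.1 TPM. Prim1, the catalytic primase subunit, fell from 101 to 1.17 TPM, Orc3 from 36.7 to 1.50 TPM and Chaf1a, of the chromatin assembly factor, from 316 to 9.16 TPM. Somatic markers summed to 479.7 to 836 TPM in MII DIOLs and 41.0 to 47.6 TPM in DIOLs of day 25, where Amhr2, Hsd3b1 and Inha were listed at 0, and their part was not tested. Because RNA was selected by its poly(A) tail, a longer tail and a larger amount of an mRNA cannot be told apart in these values.

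In oocytes the tail of stored mRNA can be lengthened through a U-rich element near the 3′ end, the cytoplasmic polyadenylation element, written here in DNA letters as TTTTAT or TTTTAAT. A search for either string in the last 100 bases of the annotated transcript (GENCODE M21, the basic transcript with the longest coding sequence, given strand) was added after the MII values were seen. A match was found in Mcm4, Mcm7, Mcm10 and Tyms, 4 of 10, against 17.7% of 19876 coding genes. The poly(A) signal strings AATAAA and ATTAAA were searched in the same window. At least one was found in Mcm4, Mcm7 and Mcm10 but none in Tyms, while 77.2% of coding genes held one. The sites are shown in 28 bases with the match in capitals.
Mcm4, 90 bases from the end: tttcattaatTTTTATagatccttagat
Mcm7, 49 bases from the end: atgctgcacttTTTTATtctgccaataa
Mcm10, 56 bases from the end: tggaactaaccTTTTAATcctgcctttt
Tyms, 100 bases from the end: TTTTATctctggccaattcatcaatgtt
Of these genes Mcm4 was called higher and Tyms lower in MII DIOLs against DIOLs of day 25. Mcm7 read 123 and 107 TPM on day 25 and 169.7 and 197 TPM in MII DIOLs. Mcm10 read 58.0 and 49.4 TPM and 77.0 and 79.2 TPM. Both were higher without a call, and were called after rescaling (1.64 and 1.51). Pcna and Rrm2, which rose, and Mcm6 and Gins1, which fell, held neither string in this window. The annotated ends may differ from those used in these cells, and a match is not a measured site.

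Against competent GV oocytes, the stage that precedes maturation, MII DIOLs were higher for Rrm2, Pcna and Mcm7, 3 of 10 against 18.3% of genes, and lower for 5 of 10 against 31.9%. Competent GV oocytes read 58.8, 65.7 and 61.4 TPM for Rrm2 (2.68 ± 0.14 (SE), adjusted p = 4.99e-13), 169, 162 and 174 TPM for Pcna (1.79 ± 0.08 (SE), adjusted p = 1.24e-14) and 79.1, 75.3 and 73.5 TPM for Mcm7 (1.26 ± 0.10 (SE), adjusted p = 7.89e-10). The 5 lower genes were Tyms at 74.7, 65.5 and 72.9 TPM (-4.53), Gins1 at 139, 118 and 118 TPM (-3.82), Mcm6 at 154, 165 and 163 TPM (-2.52), Mcm3 at 91.8, 88.3 and 93.1 TPM (-1.57) and Cdc6 at 35.7, 36.8 and 34.5 TPM (-1.45). No libraries overlapped for these 8 genes. Mcm4 was already at 172, 179 and 169 TPM in competent GV oocytes and changed by 0.21. Rescaling ended the calls of Mcm3 (-0.71) and Cdc6 (-0.62) and added one of Mcm4 (1.09), with the share of higher genes among all calls going from 36.4% to 57.1%. MII DIOLs and GV oocytes differ in origin as well as stage, and these cannot be told apart.

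Between incompetent and competent GV oocytes 0 of 10 were called by limma, against 9.96% of genes, and 6 had an unadjusted p under 0.05, beside 45.1% of all genes. The names of the data columns add 2w to incompetent and 3w to competent oocytes, so that age and competence cannot be told apart if these are ages. Mcm4 came nearest, from 88.8, 83.2 and 88.7 TPM in incompetent to 172, 179 and 169 TPM in competent oocytes (0.99 ± 0.08 (SE), adjusted p = 5.58e-09), without overlap. It was called after rescaling (1.06), and without the third competent (1.01), the first incompetent (1.01) or the third incompetent library (1.00). Rrm2 went from 38.4, 33.0 and 31.0 to 58.8, 65.7 and 61.4 TPM (0.84) and Mcm3 from 58.3, 54.9 and 57.8 to 91.8, 88.3 and 93.1 TPM (0.67), also without overlap. Pcna and Tyms overlapped between the stages.

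**Figure D4:**
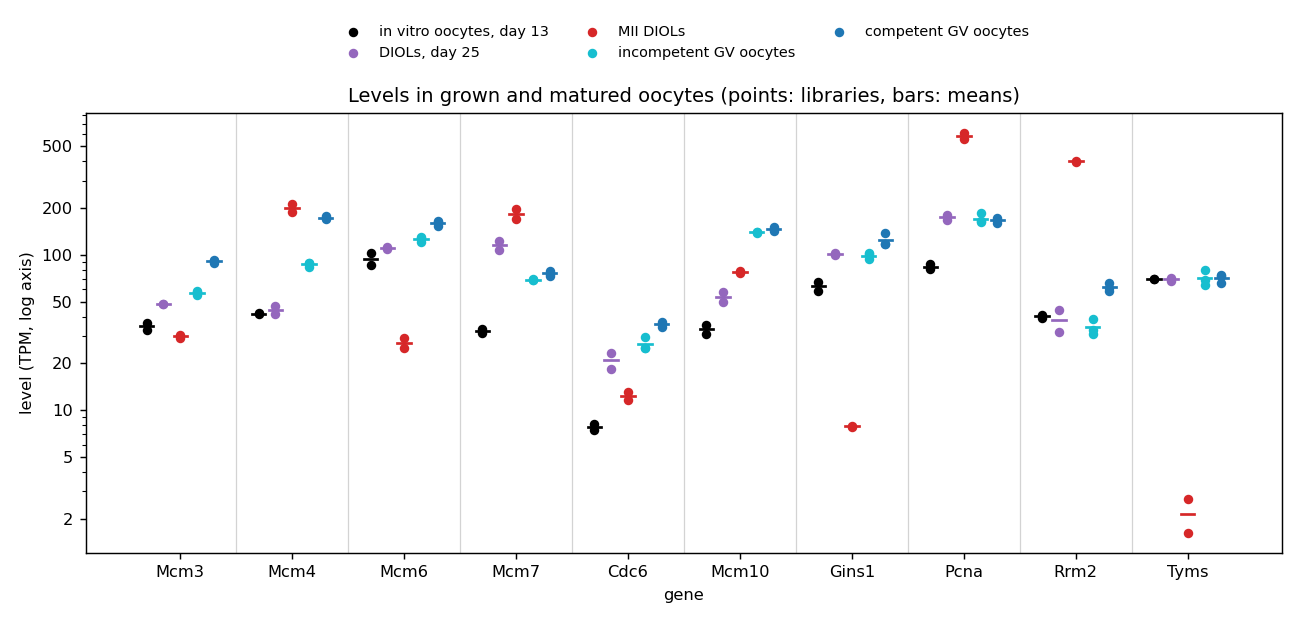
Levels in TPM on a log axis (vertical) of the 10 genes (horizontal) in in vitro oocytes of day 13, DIOLs of day 25, MII DIOLs and the 2 GV stages. Points are libraries and bars means. MII DIOLs stand above the rest for Pcna and Rrm2 and below it for Mcm6, Gins1 and Tyms.

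In vitro cells were also set beside incompetent GV oocytes. Mcm10, the firing factor, was highest in GV oocytes, at 139.8, 139.6 and 139 TPM in incompetent and 143, 147 and 151 TPM in competent ones. In DIOLs of day 25 it read 58.0 and 49.4 TPM (-1.37 ± 0.10 (SE), adjusted p = 3.38e-10), the 1 gene of 10 called lower against 13.5% of genes. The other 9 were not called, although Mcm4 read 46.9 and 41.6 TPM against 88.8, 83.2 and 88.7 TPM (-0.96) and passed when the first DIOLs library was left out (-1.04). In wild-type in vitro oocytes of day 13, 5 of 10 were lower than in incompetent GV oocytes, against 15.2% of genes. These were Mcm10 (-2.04 ± 0.23 (SE), adjusted p = 3.30e-10), Cdc6 (-1.65 ± 0.23 (SE), adjusted p = 6.40e-08), Mcm7 (-1.07 ± 0.13 (SE), adjusted p = 1.43e-09), Mcm4 (-1.03 ± 0.11 (SE), adjusted p = 1.82e-10) and Pcna (-1.02 ± 0.12 (SE), adjusted p = 1.56e-09). All of these in vitro libraries stood below all GV libraries. The call of Pcna ended when the first in vitro library (-0.96) or the third GV library (-0.96) was left out. Tyms overlapped, at 70.0 and 69.5 TPM and 64.2, 69.0 and 79.7 TPM.

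Across the 33 groups the mean level of Tyms ranged most, from 2.15 TPM in MII DIOLs to 122 TPM in DIOLs.S of day 14. Rrm2 ranged from 21.9 TPM in DIOLs.S of day 14 to 441 TPM in DIOLs.S of day 1. The ring subunits had their lowest means in different groups: Mcm3 (30.0 TPM) and Mcm6 (27.2 TPM) in MII DIOLs, Mcm4 in DIOLs.S of day 14 (34.8 TPM) and Mcm7 in wild type of day 13 (32.3 TPM). Cdc6 was never high, with means from 4.71 TPM in the Sohlh1 knockout to 40.6 TPM in DIOLs.S of day 1, and competent GV oocytes came next at 35.6 TPM. The libraries of those groups did not overlap, at 37.4 and 43.8 TPM and 35.7, 36.8 and 34.5 TPM.

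As a description over the 21 in vitro group means of log2(TPM + 1), which share reporters, preparation and scaling, Mcm3 correlated with Mcm4 at r = 0.95, with Mcm6 at r = 0.94 and with Mcm7 at r = 0.90. Tyms ran against Mcm3 at r = -0.81. Over all 33 groups Mcm4 and Mcm6 correlated at r = 0.43, and at r = 0.88 when MII DIOLs were left out, so that 1 group set most of that difference.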

How the data were processed

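RNA sequencing of polyadenylated RNA, in directional libraries, gave 71 samples in 34 groups, of which 68 libraries in 33 groups were matched to columns by name and used. The 3 primordial follicle samples and 80 further columns were not used here. The authors deposited TPM per gene, and the submitters' processing notes name STAR 2.6.0, featureCounts 1.6.0 and mm10. How reads with several matches were counted, and whether strand was used, is not given in the sources used here. The table held 15163 lines, of which 1 incomplete line and 22 with date names were dropped, leaving 15140 genes. They held a share of 0.5208 to 0.7078 of each library's total TPM, with 8011 to 10596 genes at 1 TPM or more. TPM keep no read depth, so depth is unknown and no counting interval is given.

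Differences of log2(TPM + 1) were fitted with limma 3.58.1 (trend and robust options, R 4.3.3) on genes at 1 TPM or more in at least 2 libraries. The 42 in vitro oocyte libraries formed one fit (21 residual degrees of freedom, 12306 genes), the 26 DIOL and GV libraries another (14, 11603 genes) and all 68 one more for comparisons across both (35, 12689 genes). The 35 comparisons were adjusted by Benjamini-Hochberg over all genes tested. The code was tested on simulated data, where 89% or more of genes changed by 1.5 on the log2 scale were called. The changed genes were drawn from those above 10 TPM, with noise taken from the same fits. That share therefore does not cover lower levels, such as that of Cdc6 in wild type of day 13 (7.76 TPM). Members and gene lists were chosen with earlier results of these data known, and the search of 3′ ends was added after values were seen. Named genes are the 10 members and, per list and comparison, up to 2 called genes with the largest change, a mean of at least 10 TPM and no overlap between groups. GV columns were matched to samples by stage. Tables and figures were made with Python 3.11.15 and matplotlib 3.10.9. Pseudocount, filter, scaling, replicate block, fit and left-out libraries were varied.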

Additional observations from a re-analysis of the deposited data

How the results depend on the processing

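Of the 350 member changes (10 genes in 35 comparisons), none that was called in the main fit or in an alternative reversed between them. Changes of sign in values called in neither were not counted. A pseudocount of 0.1, no filter, one fit over all libraries and, for in vitro oocytes, leaving out the Sohlh1 libraries changed no call of a member. Rescaling by the median of ratios ended 16 calls and added 13. It moved the members called from 2 to 1 in Figla, from 5 to 3 in Stat3, from 6 to 3 in Nobox and from 5 to 3 in Tbpl2. It moved them from 1 to 2 in Sohlh1, from 0 to 1 in Ybx3 and from 0 to 1 between GV stages; the cause was not tested. Leaving out one library gave 0 to 1 members called between the wild-type days, 1 to 3 in Figla, 1 to 3 in Sohlh1, 0 to 1 between DIOLs.S and DIOLs of day 5, 0 to 1 between GV stages and 1 to 2 for DIOLs of day 25 against incompetent GV oocytes. Only the counts that moved most in proportion are listed here, for rescaling and for left-out libraries alike. Smaller moves, such as the ended calls of Cdc6 and Rrm2 in Dynll1 after rescaling, are not. A lone library left in a group was assumed to vary like the other groups. Replicate numbers did not pair the samples, since deviations of same-numbered libraries correlated at -0.150 to 0.083. With the replicate number as a block, 1 call ended (Pcna in day 13 wild type against incompetent GV oocytes, -0.97), taking that comparison from 5 members called to 4. Crossing the numbers between DIOLs.S of days 5 and 7, an alternative chosen after seeing the data, left 0 members called. With 2 libraries in most groups the number of libraries limits precision, and read depth is unknown.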
